A study of Mus musculus with 6 samples.

Results

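Chromatin modifiers and remodellers are described here in RNA sequencing of mouse hippocampus after postnatal immune activation, with and without interleukin 27. The set holds the 30 genes, of 3733 in the deposited table, whose symbols begin with Kdm, Kmt, Setd, Kat, Hdac, Brd, Phf, Baz, Chd, Smarc, Arid, Tet or Atrx; Kdm5d was left out of the set. The members were picked by gene name alone, but the set was chosen with earlier results of these data known. Katnal2 entered by its prefix only, since it encodes a katanin-like protein of microtubule severing, and 29 genes remain without it.

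The study compared 3 groups of 2 libraries each. Hippocampi of the PIA+IL-27 group came from mice given lipopolysaccharide (LPS, a bacterial cell wall component that activates innate immune cells) together with recombinant IL-27. Those of the PIA group came from mice given LPS without the cytokine, and those of the Control group from mice that the labels call control. PIA stands for postnatal immune activation; strain, age, sex, dose and sampling time are not stated in the labels. IL-27 is a cytokine of myeloid cells that signals through STAT proteins, and the title of the study names microglia as its source. Nothing states whether the libraries of a group came from separate animals, so that p-values measure only the spread between these samples.

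DNA in the nucleus is wound around histones, and chromatin proteins decide which stretches of it can be read. Writers add methyl or acetyl groups to histones, erasers remove them, readers bind them, and remodellers use ATP to slide or replace nucleosomes, while TET enzymes oxidise methylated cytosine. Many of these genes are large. In humans, loss of several of them, such as ATRX, CHD7, KDM6A, PHF6 or KMT2C, causes disorders of brain development.

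By family, the table lists 4 of 17 Kdm genes of the mouse RefSeq annotation, 2 of 8 Kmt, 2 of 10 Setd, 7 of 22 Phf, 1 of 10 Brd, 1 of 4 Baz, 3 of 11 Chd, 3 of 13 Smarc, 3 of 10 Arid and 2 of 3 Tet genes, with Atrx and with 1 of 13 genes of the Kat prefix. None of the 11 Hdac genes, the classical histone deacetylases, is listed. In all, 30 of 133 protein-coding genes with such a symbol are in the table (22.6%), beside 16.8% of all protein-coding genes. Each gene in the table passed the authors' cut-offs (log2 fold change of 1 or more in either direction, Q value no higher than 0.05) in some comparison, so the genes were selected on these same libraries.

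The promoters of 20 members are in RefSeq (GRCm38.p6), as 24 windows from 250 bases before to 50 bases after a transcription start. Phf11b and Phf11a, whose human relative PHF11 is known from immune cells, are shown first because Phf11b was the member that departed most from the others and because both hold an interferon-stimulated response element (ISRE), the site at which STAT and interferon regulatory factors bind. The capitals mark the match to GAAANNGAAA, searched on both strands. Phf11b lies at chr14:59341281-59341580 on the minus strand and Phf11a at chr14:59297473-59297772 on the minus strand.
Phf11b: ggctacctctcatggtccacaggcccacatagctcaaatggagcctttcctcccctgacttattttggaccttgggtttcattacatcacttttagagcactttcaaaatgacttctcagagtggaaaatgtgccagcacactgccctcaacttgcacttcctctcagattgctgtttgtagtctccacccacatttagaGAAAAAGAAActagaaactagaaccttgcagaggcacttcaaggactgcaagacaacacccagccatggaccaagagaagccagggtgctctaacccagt
Phf11a: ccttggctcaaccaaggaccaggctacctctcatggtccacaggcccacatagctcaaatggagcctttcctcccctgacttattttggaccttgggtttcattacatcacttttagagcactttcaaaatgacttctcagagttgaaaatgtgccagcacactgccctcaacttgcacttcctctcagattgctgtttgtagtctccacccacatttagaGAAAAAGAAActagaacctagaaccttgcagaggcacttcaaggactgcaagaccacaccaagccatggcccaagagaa
The match began 50 bases before the start of Phf11b and 29 bases before that of Phf11a. Shifted by 21 bases, the windows were identical at 274 of 279 positions (98.2%). Reads from transcripts that are alike can be split between genes, and both genes carried counts that were not whole in 2 libraries each. How alike their transcripts are was not measured, since these windows lie mostly before the start. Phf11d, another gene of this cluster on chromosome 14, had no match to this exact pattern. Slid along Phf11b without gaps, its window was identical at 102 of 250 positions at the best shift tried (40.8%). No alignment with gaps was made, so this value does not show how alike these windows are.

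Arid4b, which encodes a subunit of the SIN3 corepressor complex, was the only other member with an ISRE match. It lies at chr13:14063534-14063833 on the plus strand, and the match, 195 bases before the start, is on the other strand, so that the capitals show its reverse complement.
Arid4b: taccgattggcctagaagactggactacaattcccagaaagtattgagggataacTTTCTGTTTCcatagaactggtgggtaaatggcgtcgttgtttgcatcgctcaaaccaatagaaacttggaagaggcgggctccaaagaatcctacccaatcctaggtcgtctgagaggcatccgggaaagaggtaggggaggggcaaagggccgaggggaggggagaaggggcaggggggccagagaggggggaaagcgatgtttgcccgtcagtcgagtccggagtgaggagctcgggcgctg
The motif was found in 3 of 24 member windows (12.5%), in 4.84% of the windows of all genes in the table and in 3.44% of all RefSeq windows. The nearly identical windows of Phf11b and Phf11a were counted separately in the member share. The site of activated STAT dimers, TTCNNNGAA, was found in 4 member windows (16.7%), those of Arid4b, Baz2b, Setd7 and Smarcad1, beside 8.83% of the windows of the table. CCGGAAG, the ETS factor site, was found for Kdm7a alone (4.17%, beside 10.2% of the table), and GCCATNTT, the YY1 site, for Atrx alone (4.17%, beside 5.59%). The ISRE and STAT matches of Arid4b did not overlap. A match describes letters in the window and is not a measured binding site.

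CG dinucleotides are the substrate of DNA methylation that TET enzymes act on, and 14 of the 20 members with a window had one with more of them than the median of the table. The member windows held a median of 19 CG dinucleotides and 62.2% GC, beside 12 and 56.3% in the table and 7.0 and 52.7% in all of RefSeq. Smarca5, the ATPase of the ISWI remodelling complexes, shows this with 32 CG dinucleotides in capitals, at chr8:80739410-80739709 on the minus strand.
Smarca5: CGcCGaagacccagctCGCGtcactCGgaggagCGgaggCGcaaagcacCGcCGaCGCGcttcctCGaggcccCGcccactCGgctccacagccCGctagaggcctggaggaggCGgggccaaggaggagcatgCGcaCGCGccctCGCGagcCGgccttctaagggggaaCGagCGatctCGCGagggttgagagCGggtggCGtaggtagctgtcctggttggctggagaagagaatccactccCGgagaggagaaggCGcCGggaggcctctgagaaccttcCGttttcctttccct
Atrx, the remodeller with the largest difference described below, has 11 at chrX:105929323-105929622 on the minus strand.
Atrx: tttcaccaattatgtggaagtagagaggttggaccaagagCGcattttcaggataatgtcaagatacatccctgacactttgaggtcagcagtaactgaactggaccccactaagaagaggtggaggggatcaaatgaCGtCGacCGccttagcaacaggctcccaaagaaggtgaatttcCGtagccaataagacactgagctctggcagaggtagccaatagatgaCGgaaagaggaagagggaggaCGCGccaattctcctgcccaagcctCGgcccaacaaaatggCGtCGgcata
The windows of Phf11b and Phf11a held 0 CG dinucleotides, and Kdm7a had the most, with 65.

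The libraries of the Control group differed from each other before any groups were compared. Values are given as the authors' normalized read count, the read count divided by 1 factor per library, and levels are compared between genes only in TPM (transcript abundance corrected for length and scaled to a fixed total). Members held 14999 and 13704 reads in the PIA+IL-27 libraries, 6534 and 4569 in the PIA libraries, and 5069 and 14415 in the Control libraries. Replicate 2 of Control lay above replicate 1 for 29 of 30 members, by a median of 2.85-fold, and by more than 2-fold for 26 of them (86.7%). Over the whole table the same ratio had a median of 2.38-fold, and 71.0% of genes differed more than 2-fold. Medians of the members between replicates were 1.21-fold in the PIA+IL-27 group and 1.21-fold in the PIA group. For 26 of 30 members (86.7%) the lowest 3 libraries were PIA 1, PIA 2 and Control 1, a pattern shared by 52.4% of the table; the exceptions were Arid3c, Katnal2, Phf11b and Phf11d. Reads of the Y-linked genes Ddx3y, Eif2s3y and Uty summed to normalized counts of 1243 and 6.80 in PIA+IL-27, 396 and 443 in PIA, and 2.94 and 9.52 in Control, so the libraries of the PIA+IL-27 group differ in Y-linked expression. Both PIA libraries held such reads and both Control libraries nearly none. In PIA against Control, the treatment and Y-linked expression therefore cannot be told apart.

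**Figure D1:**
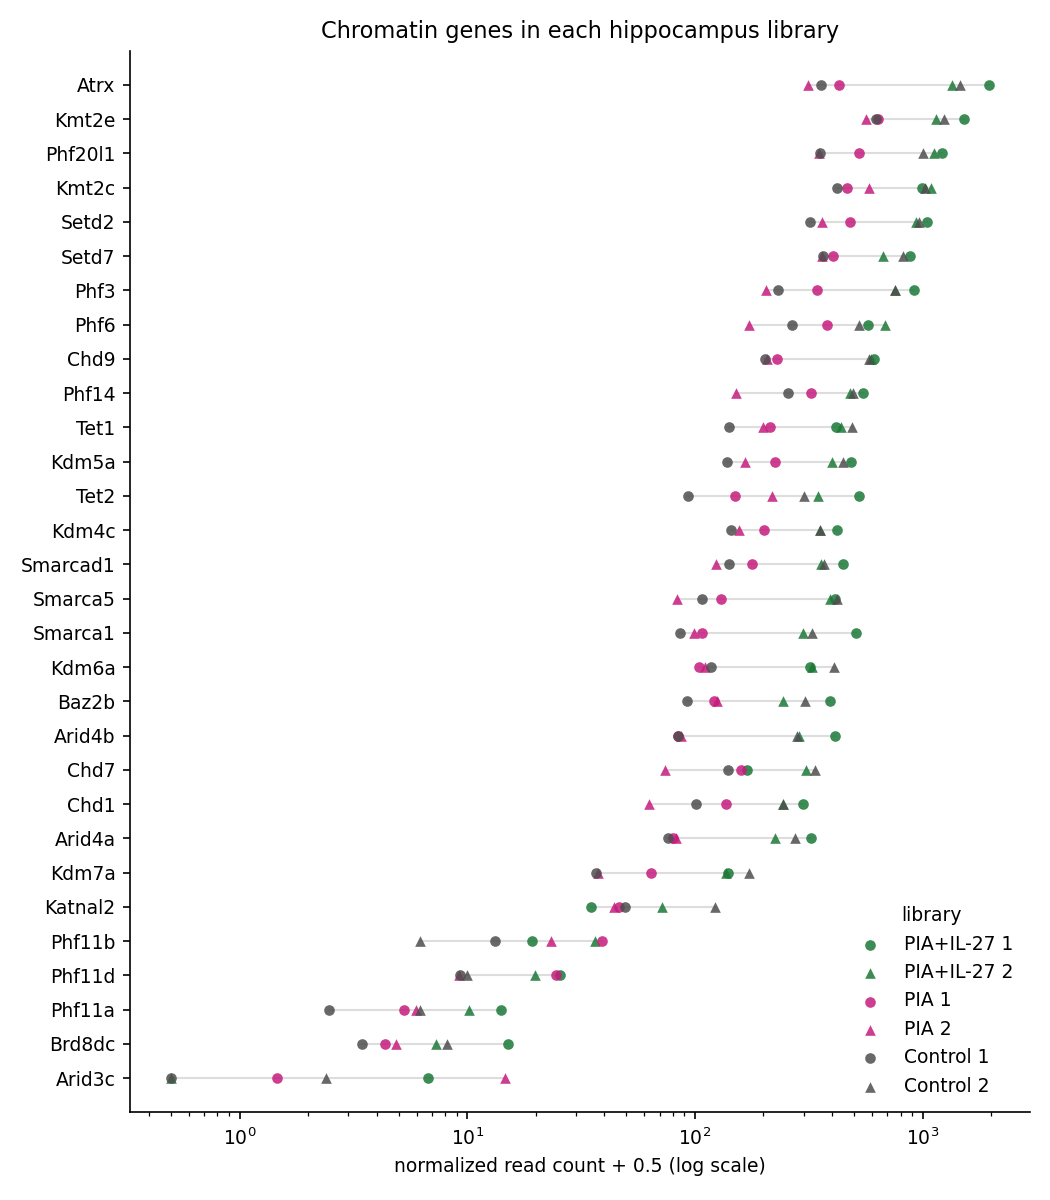
Normalized read count of each member in each of the 6 libraries, on a log axis after adding 0.5, with members ordered by their mean. Colours give the group, circles replicate 1 and triangles replicate 2, and the grey line spans the libraries; for most members both PIA+IL-27 libraries and Control 2 lie to the right of both PIA libraries and Control 1.

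In PIA+IL-27 against PIA, most chromatin genes were higher with IL-27, but no member passed the test on all 6 libraries. Both PIA+IL-27 libraries lay above both PIA libraries for 26 of 30 members, among them all members of the Kdm, Kmt, Setd, Chd, Smarc and Tet families, and for 0 members below; 57.1% of the table was higher in this way and 16.5% lower. The 27 members that passed the filter on low counts had a median of 1.24 on the log2 scale, with 26 above 0, beside 1.17 over all 3216 genes tested, so that the members lay close to the table as a whole. In edgeR's quasi-likelihood test with Benjamini-Hochberg adjustment, 0 of 27 members passed 0.05 in either direction, the smallest adjusted p being 0.257; of all genes, 0.0622% were called higher and 0.373% lower. Without adjustment 4 members had a p under 0.05, all higher (Atrx, Arid4b, Smarca1 and Smarca5), beside 14.4% of genes higher and 4.35% lower. The spread behind these p-values was pooled over all 6 libraries, so it includes the difference between the Control libraries. With only the 4 libraries of this comparison, 22 of 27 members had an unadjusted p under 0.05 in edgeR, all higher. Beside them, 1561 of 3006 genes tested did so in either direction. In that fit 7 members passed after adjustment, beside 14.9% of genes. At an unadjusted p under 0.05, DESeq2 found 10 of 30 members, all higher, beside 21.1% of genes higher and 4.21% lower, and limma on log2(TPM + 1) found 4 of 30, all higher, beside 11.9% and 5.09%; neither found any after adjustment. By the cut-offs above, the authors' deposited table calls the same 26 members changed, all of them higher, beside 79.7% of the table in either direction. An exact permutation test of 2 against 2 libraries cannot give a two-sided p below 0.333.

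These directions depended on the scaling. The authors' factors, whose making is not given in the sources used here, ran from 0.917 to 1.05. TMM factors computed over the listed genes moved the median of all genes to -0.03 and that of the members to 0.05, with 15 members above 0 and 12 below. TMM scaling assumes that most genes are unchanged, whereas each listed gene was selected as changed. A median near 0 over all genes is thus set by the method. Signs with TMM factors, here and below, only place a gene among the other listed genes. Relative to the median of all genes tested, the members lay 0.07 higher on the log2 scale with the authors' factors and 0.08 higher with TMM factors. With TMM factors 9 of 30 members did not overlap upwards and 5 downwards, beside 23.1% and 27.5% of the table.

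**Figure D2:**
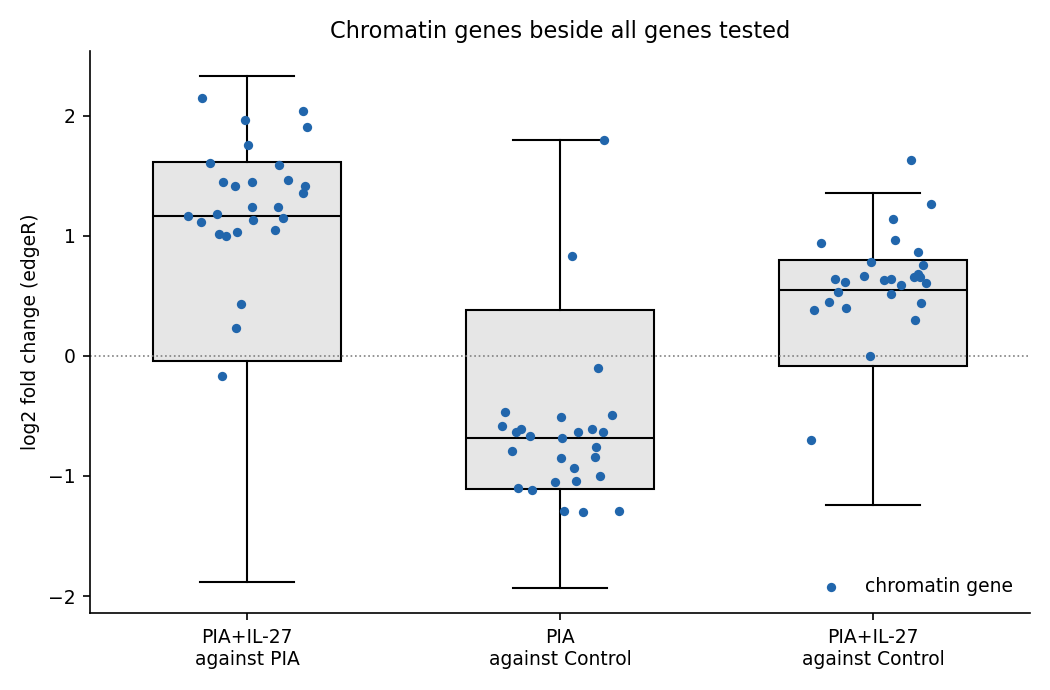
Log2 fold change of the 27 members tested (blue points, spread sideways for visibility) in each comparison, over a box of all 3216 genes tested (box, quartiles with the median; whiskers, 5th to 95th percentile). The members' medians of 1.24, -0.68 and 0.64 lie beside medians of 1.17, -0.68 and 0.55 for all genes.

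The ATPase remodellers of the Atrx, Chd and Smarc families had a median log2 fold change of 1.47 over 7 genes in PIA+IL-27 against PIA, and with TMM factors 6 of the 7 stayed above 0, the exception being Chd7 at -0.07. Atrx, an ATPase that deposits the histone variant H3.3 at repeats and telomeres, had normalized counts of 1954 and 1347 in PIA+IL-27, 430 and 312 in PIA, and 357 and 1452 in Control. Both PIA+IL-27 libraries were above both PIA libraries, while Control 1 lay between the PIA libraries and Control 2 between the PIA+IL-27 libraries. The log2 fold change in PIA+IL-27 against PIA was 2.15 ± 0.863 (SE; adjusted p = 0.257, edgeR). Smarca1 and Smarca5 encode the paired ISWI ATPases, SNF2L and SNF2H. Smarca1 had 507 and 297 normalized counts in PIA+IL-27, 107 and 98.2 in PIA, and 85.2 and 325 in Control, a log2 fold change of 1.97 ± 0.917 against PIA. Smarca5 had 412 and 390 in PIA+IL-27, 130 and 82.9 in PIA, and 107 and 419 in Control, a log2 fold change of 1.91 ± 0.910. Control 2 was 3.79-fold above Control 1 for Smarca1 and 3.91-fold for Smarca5, and the PIA libraries lay near Control 1. Smarcad1, a remodeller of DNA repair and heterochromatin, had 448 and 356 in PIA+IL-27, 177 and 123 in PIA, and 140 and 368 in Control.

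Arid4a and Arid4b, paired subunits of the SIN3 histone deacetylase complex and not remodelling ATPases, were at nearly the same level in PIA 1, PIA 2 and Control 1. Arid4b had normalized counts of 413 and 286 in PIA+IL-27, 83.6 and 86.2 in PIA, and 84.2 and 281 in Control (log2 fold change against PIA 2.04 ± 0.930). Arid4a had 324 and 225 in PIA+IL-27, 79.8 and 81.8 in PIA, and 75.4 and 276 in Control (1.76 ± 0.933, adjusted p = 0.265 in edgeR). Arid3c, a DNA-binding protein named for the same domain, had 6.26 and 0 in PIA+IL-27, 0.961 and 14.2 in PIA, and 0 and 1.90 in Control, too few reads to be tested.

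The CHD remodellers, which read methylated histones with chromodomains, differed among themselves. Chd9 had 609 and 593 normalized counts in PIA+IL-27, 228 and 207 in PIA, and 202 and 579 in Control, with close replicates in the first 2 groups. Chd7, known from CHARGE syndrome and from adult neural stem cells, had 169 and 306 in PIA+IL-27, 159 and 73.1 in PIA, and 139 and 337 in Control. Its PIA+IL-27 1 library was only just above PIA 1. Markers of dentate granule cells, 3 of 6 listed, summed to 898 and 1835 in PIA+IL-27, 900 and 271 in PIA, and 762 and 1842 in Control. Prox1 and Dsp were each higher in PIA+IL-27 2, PIA 1 and Control 2 than in the other library of the group, as Chd7 was, whereas Stxbp6, at 709 and 417 in PIA+IL-27, was higher in replicate 1 there. The part of these markers in the Chd7 values was not tested. In such bulk samples, fewer cells of a type and less RNA per cell cannot be told apart.

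Histone methyltransferases, the writers, had a median log2 fold change of 1.08 over 4 genes in PIA+IL-27 against PIA; with TMM factors Setd2 alone stayed above 0, at 0.04. Kmt2c, which methylates lysine 4 of histone H3 at enhancers, had normalized counts of 998 and 1085 in PIA+IL-27, 463 and 582 in PIA, and 420 and 1024 in Control. Setd2, the enzyme of lysine 36 trimethylation along transcribed genes, had 1048 and 937 in PIA+IL-27, 480 and 362 in PIA, and 319 and 964 in Control. Both had both PIA+IL-27 libraries and Control 2 at about the same level. Kmt2e, a family member without clear enzymatic activity, had 1523 and 1143 in PIA+IL-27, 639 and 563 in PIA, and 624 and 1235 in Control. Its counts were not whole in all 6 libraries, so reads shared with other sequences enter its values. Setd7, a methyltransferase of lysine 4 and of non-histone proteins, had 878 and 671 in PIA+IL-27, 404 and 362 in PIA, and 366 and 821 in Control.

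The erasers listed are 4 histone demethylases, with a median log2 fold change of 1.31 in PIA+IL-27 against PIA; with TMM factors Kdm4c and Kdm5a were below 0, at -0.08 and -0.03. Kdm6a, which removes methyl groups from lysine 27 and escapes X inactivation, had normalized counts of 319 and 327 in PIA+IL-27, 104 and 110 in PIA, and 117 and 408 in Control. Replicate 2 over replicate 1 was 1.03-fold in PIA+IL-27 and 1.06-fold in PIA, although the Y-linked sum of the PIA+IL-27 libraries was high in replicate 1 and near 0 in replicate 2. Both PIA libraries were below both Control libraries, though PIA 2 and Control 1 differed by only a few counts. These groups also differed in Y-linked expression, whose part in the Kdm6a values was not tested. The log2 fold change was 1.59 ± 0.909 in PIA+IL-27 against PIA (adjusted p = 0.277, edgeR) and -1.29 ± 0.902 in PIA against Control (adjusted p = 0.617). Kdm4c, a demethylase of lysine 9, had 421 and 355 in PIA+IL-27, 201 and 155 in PIA, and 144 and 354 in Control. Kdm7a, a demethylase of lysines 9 and 27, had 139 and 136 in PIA+IL-27, 63.4 and 37.1 in PIA, and 36.2 and 172 in Control.

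Of the TET dioxygenases, Tet1 had normalized counts of 415 and 439 in PIA+IL-27, 213 and 199 in PIA, and 141 and 489 in Control. Tet2 had 523 and 347 in PIA+IL-27, 150 and 217 in PIA, and 93.1 and 301 in Control. Tet2 was thus above both Control libraries in both PIA+IL-27 libraries, whereas Tet1 was not. In PIA+IL-27 against PIA the log2 fold changes were 1.05 ± 0.871 for Tet1 and 1.24 ± 0.887 for Tet2 (SE), and with TMM factors they were -0.15 and -0.03.

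Readers had a median log2 fold change of 1.18 over 7 genes in PIA+IL-27 against PIA, and with TMM factors Phf14, Phf11b and Phf11d were below 0. Phf20l1, a Tudor-domain reader of methylated lysine, was the member with the highest level per length, at 32.8 and 31.9 TPM in PIA+IL-27, 15.7 and 9.50 TPM in PIA, and 9.83 and 28.8 TPM in Control. Phf3, which binds RNA polymerase II, had normalized counts of 912 and 754 in PIA+IL-27, 342 and 204 in PIA, and 232 and 753 in Control (log2 fold change against PIA 1.61 ± 0.873). Baz2b, a bromodomain protein, had 390 and 243 in PIA+IL-27, 121 and 125 in PIA, and 92.1 and 304 in Control. Each of these had the order of the other families. Phf6, the X-linked gene of Börjeson-Forssman-Lehmann syndrome, had 573 and 684 in PIA+IL-27, 381 and 173 in PIA, and 267 and 524 in Control. Brd8dc, on chromosome 18, had 14.6 and 6.80 in PIA+IL-27, 3.84 and 4.36 in PIA, and 2.94 and 7.62 in Control, and was too low to be tested.

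Phf11b and Phf11d did not follow the other members. Phf11b had normalized counts of 18.8 and 35.9 in PIA+IL-27, 38.4 and 22.9 in PIA, and 12.7 and 5.71 in Control. Both LPS groups were above both Control libraries and overlapped each other. The log2 fold change was 1.80 ± 1.14 in PIA against Control (adjusted p = 0.617, edgeR) and 1.63 ± 1.14 in PIA+IL-27 against Control (adjusted p = 0.835), and -0.17 ± 1.09 in PIA+IL-27 against PIA. With TMM factors these were 1.97, 0.69 and -1.29 in the same order, and with GC and length trends removed 1.57, 1.35 and -0.22. Phf11d had 25.0 and 19.4 in PIA+IL-27, 24.0 and 8.73 in PIA, and 8.82 and 9.52 in Control, with PIA 2 at the level of Control. Phf11a had 13.6 and 9.71 in PIA+IL-27, 4.80 and 5.46 in PIA, and 1.96 and 5.71 in Control, too low to be tested. The neutrophil markers S100a8, S100a9, Ly6g and Retnlg, all 4 listed, summed to 75.1 and 28.2 in PIA+IL-27, 1301 and 38.2 in PIA, and 354 and 13.3 in Control, so they were highest in PIA 1, as Phf11b was, and below Control 1 in both PIA+IL-27 libraries. Their part in the Phf11 values was not tested.

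**Figure D3:**
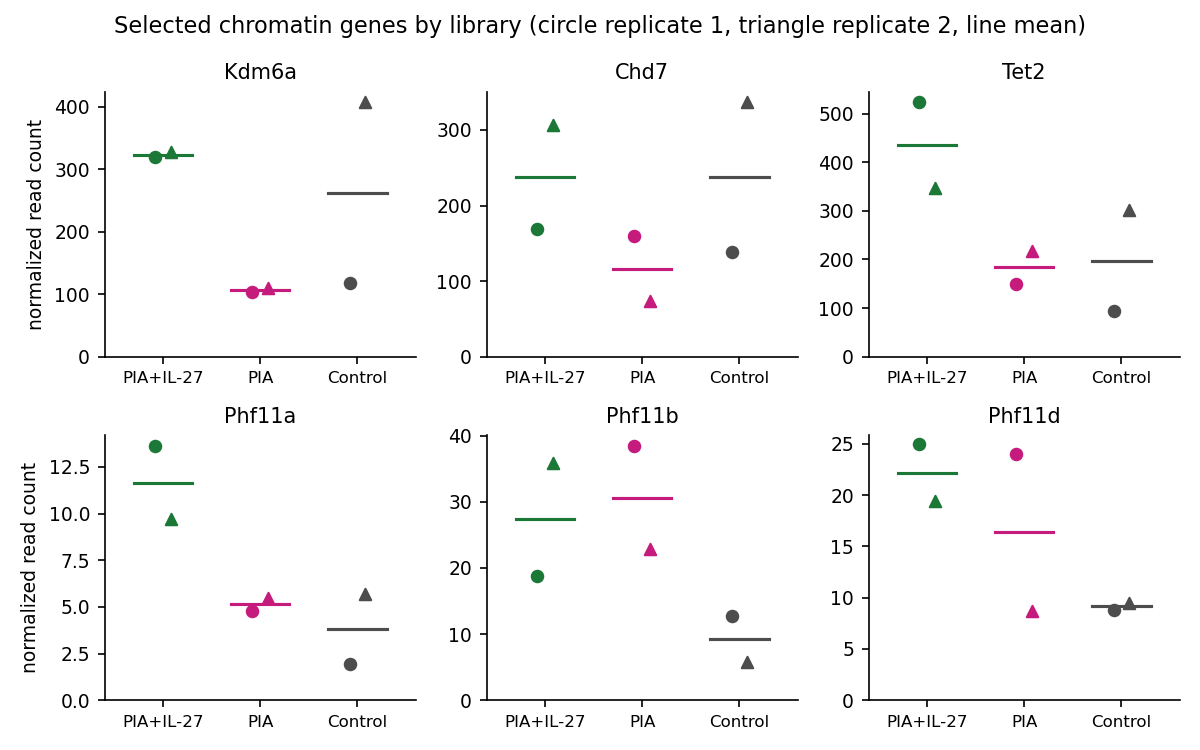
Normalized read counts of 6 members in each library (linear axis from 0), with groups from left to right PIA+IL-27, PIA and Control, circles for replicate 1, triangles for replicate 2 and a line at the mean. Kdm6a is close within PIA+IL-27 and within PIA and split within Control, whereas Phf11b is higher in both LPS groups than in both Control libraries.

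In PIA against Control, chromatin genes were mostly lower in both PIA libraries than in Control 2 and near the level of Control 1. In edgeR 0 of 27 members passed 0.05 after adjustment, the smallest adjusted p being 0.617, and 0 had an unadjusted p under 0.05; DESeq2 and limma also found 0 at an unadjusted p under 0.05. Of all genes, 0.155% were called higher and 0.0622% lower, and 3.05% and 3.23% without adjustment. Groups did not overlap for 1 member that was higher (Phf11b), beside 17.2% of the table, and for 2 that were lower (Kdm6a and Katnal2), beside 16.5%. The median log2 fold change of the members was -0.68, equal to that of all genes; without Control 2 it was 0.25, and without Control 1 it was -1.22. The authors' deposited table calls 11 members changed, beside 52.4% of the table in either direction; Arid3c and Phf11b have a positive fold change there, and Arid4a, Arid4b, Atrx, Chd7, Katnal2, Kdm6a, Kdm7a, Smarca1 and Smarca5 a negative one. Katnal2 had 34.4 and 70.9 normalized counts in PIA+IL-27, 46.1 and 43.6 in PIA, and 49.0 and 122 in Control. Ependymal markers of motile cilia, 4 of 5 listed, summed to 121 and 778 in PIA+IL-27, 238 and 227 in PIA, and 633 and 708 in Control; their part in the Katnal2 values was not tested.

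In PIA+IL-27 against Control, most members lay above Control 1 and near Control 2. In edgeR 0 of 27 members passed 0.05 after adjustment (smallest adjusted p = 0.835), and 0 had an unadjusted p under 0.05, as in DESeq2 and limma. Of all genes, 0.187% were called higher and 0.124% lower, and 1.65% and 1.21% without adjustment. Groups did not overlap for 10 members that were higher (Arid4b, Chd9, Kdm4c, Phf11a, Phf11b, Phf11d, Phf20l1, Phf3, Phf6 and Tet2), beside 23.0% of the table, and for 0 that were lower, beside 7.50%. For several of these, Phf3 and Kdm4c among them, the lower PIA+IL-27 library exceeded Control 2 by very little. The median log2 fold change was 0.64, beside 0.55 over all genes; without Control 1 it was 0.12, and without Control 2 it was 1.62. The authors' deposited table calls 4 members changed, all higher (Phf11a, Phf11b, Phf11d and Tet2), beside 21.8% of the table in either direction. Tet2 had a log2 fold change of 1.14 ± 0.884 and Phf11d of 1.27 ± 1.17 in this comparison. The 3 comparisons share libraries in pairs, so their values for a member are not independent.

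**Figure D4:**
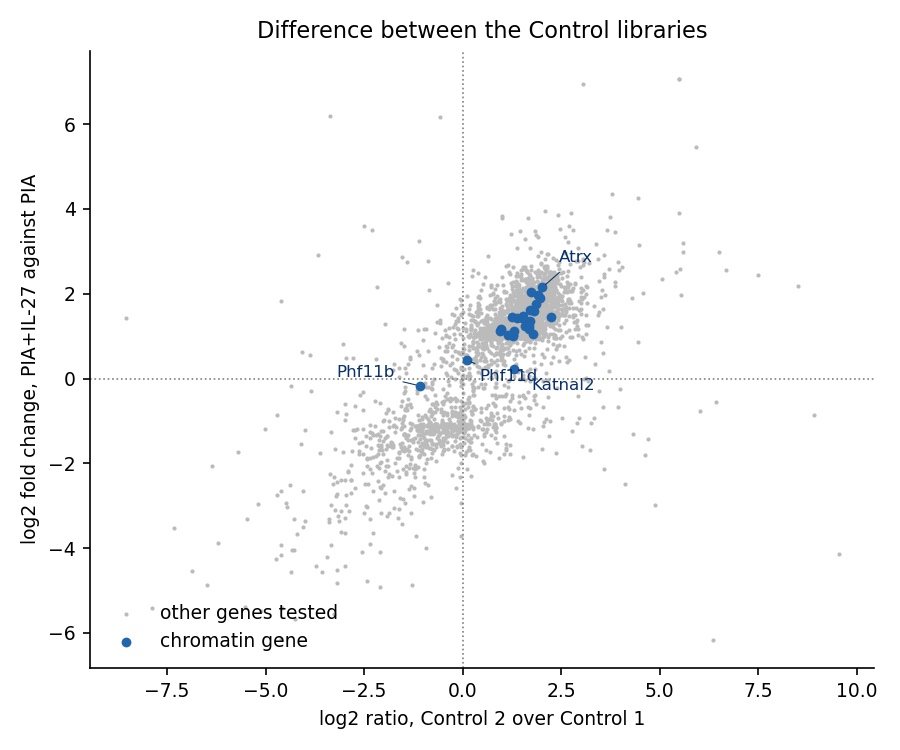
Log2 fold change in PIA+IL-27 against PIA (vertical) against the log2 ratio of Control 2 over Control 1 (horizontal) for the members (blue) and all other genes tested (grey). Members sit mostly at the upper right, with Phf11b at the left and Phf11d and Katnal2 near 0 on the vertical axis.

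The difference between the Control libraries and that in PIA+IL-27 against PIA ran in the same order over genes. Over the 27 members tested, Spearman's rho between the log2 ratio of Control 2 over Control 1 and the log2 fold change was 0.76, and over all genes it was 0.72; these quantities come from separate libraries, but genes share length, base composition and cell type. Kdm7a was 4.70-fold higher in Control 2 than in Control 1, with a log2 fold change against PIA of 1.45. Atrx was 4.07-fold higher, with 2.15, and Arid4b 3.32-fold higher, with 2.04, so that the order of the members differed between these quantities.

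Base composition moved with the values as well. The longest coding transcripts of 29 members had a median GC content of 43.7%, from 39.1% in Phf6 to 58.8% in Arid3c, beside 44.9% in the table, and a median length of 7317 bases, beside 3594 bases. Spearman's rho between GC content and log2 fold change in PIA+IL-27 against PIA was -0.55 over the 27 members and -0.64 over all genes. With the genes split into 3 equal bins by GC content, the median was 1.58 in the lowest bin, 1.24 in the middle bin and -0.82 in the highest bin, whereas the members in those bins had 1.45 (9 genes), 1.24 (15 genes) and 1.02 (3 genes). Trends with GC content and length were also removed within each library. This took out each library's mean deviation over the genes as well, so a median near 0 over all genes was set by the method. How much of the change came from GC content and length was not tested. After the removal, the members' median log2 fold change was -0.02, beside 0.09 for all genes. Atrx then had 0.42 ± 0.210 (SE; adjusted p = 0.595, edgeR), Arid4a 0.47 ± 0.335, Arid4b 0.43 ± 0.278, Smarca5 0.36 ± 0.252 and Smarca1 0.30 ± 0.280, and Tet1 had -0.40 ± 0.209. In all, 13 members were above 0 and 14 below. The remodellers other than Smarcad1 and both Arid4 genes were above 0, as were Setd7, Phf3, Baz2b, Kdm6a and Katnal2. The other writers were below 0 by less than their SE, with Kmt2c at -0.06 ± 0.236, Kmt2e at -0.06 ± 0.232 and Setd2 at -0.12 ± 0.184.

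**Figure D5:**
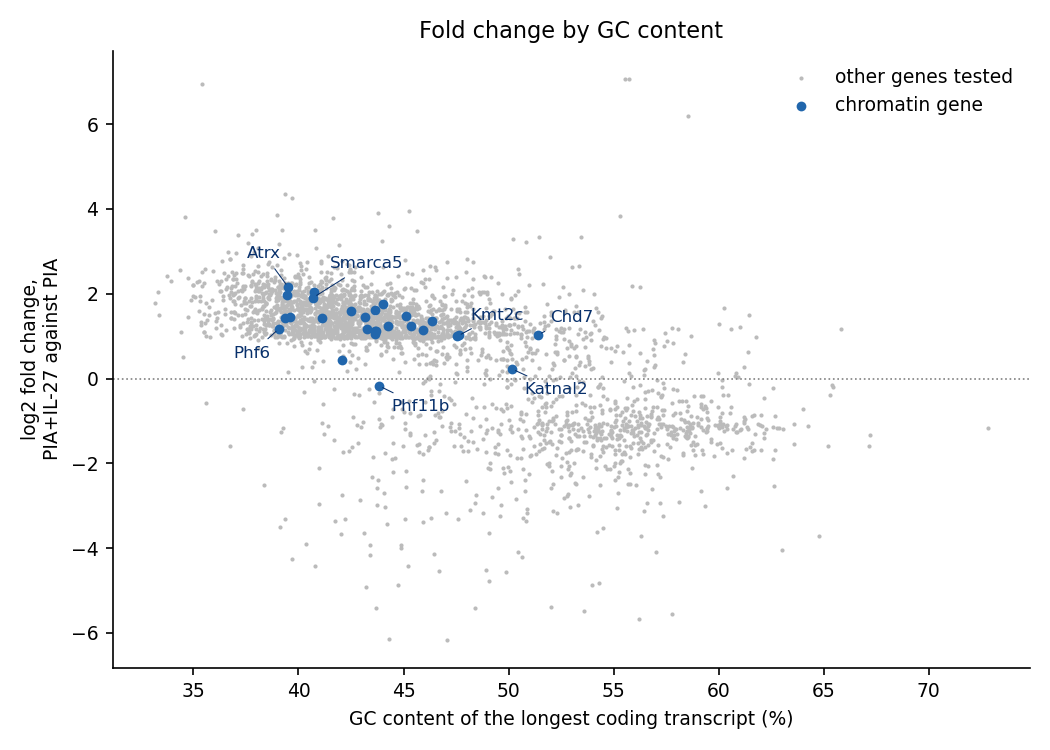
Log2 fold change in PIA+IL-27 against PIA (vertical) by GC content of the longest coding transcript (horizontal, %) for the members (blue) and other genes tested (grey). Values fall with GC content, with a rho of -0.55 over members and -0.64 over all genes.

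Markers of microglia and neurons in the table varied with the same libraries. P2ry12, the receptor of resting microglia and 1 of 6 microglial markers listed, had normalized counts of 258 and 184 in PIA+IL-27, 9.61 and 56.7 in PIA, and 14.7 and 232 in Control. The neuronal markers Snap25 and Gad2, 2 of 6, summed to 5595 and 4687 in PIA+IL-27, 2265 and 1766 in PIA, and 1770 and 4508 in Control. Their part in the members' values was not tested.

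Other genes of chromatin, which the prefixes do not name, mostly had the same order of libraries. Of 57 such genes listed and tested, 0 passed the test in any comparison, and in PIA+IL-27 against PIA 16 had an unadjusted p under 0.05, all higher, beside 14.4% of the genes tested. Groups did not overlap upwards for 53 of the 57, beside 57.1% of the table, and downwards for 0, beside 16.5%. The median log2 fold change was 1.42, beside 1.17 over all genes tested. Cohesin and other remodelling subunits were the largest group, with a median of 1.52 over 26 genes, of which 24 did not overlap upwards. Nipbl, which loads cohesin on DNA, had normalized counts of 481 and 378 in PIA+IL-27, 124 and 90.6 in PIA, and 114 and 384 in Control. Stag2, a cohesin subunit, had 642 and 478 in PIA+IL-27, 143 and 90.6 in PIA, and 121 and 528 in Control. The Polycomb list had a median of 1.25 over 7 genes, histone methyltransferases 1.19 over 4, acetyltransferases and their scaffolds 1.47 over 6, corepressors and sirtuins 1.37 over 5, other demethylases 1.63 over 4 and DNA methylation genes 1.15 over 5. Hr and Mbd6 departed from this order, both highest in PIA 2. Dpf3 and Bcl11b, of the cohesin and remodelling group, departed too, with PIA+IL-27 and PIA libraries that overlapped. Hr, a histone demethylase, had 612 and 389 in PIA+IL-27, 450 and 1399 in PIA, and 495 and 282 in Control.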

How the data were processed

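RNA sequencing of hippocampus was analysed in 6 libraries, 2 each of PIA+IL-27, PIA and Control, grouped by the treatment in the labels. Sequencing was done at BGI Genomics, per the labels' protocols. The deposited table gives per gene an expected (estimated) count, of which 11.3 to 13.3% are not whole, with TPM and FPKM per library, per the file headers. The deposited normalized signal was found to be the rounded-up read count over 1 factor per library (0.917 to 1.05, tolerance 1e-06). Fold changes (log2), p-values and Q values per comparison were deposited too. No label or header names the aligner, build or test. Reads in the listed genes ranged from 641672 to 1593441 per library (2.14 to 5.61% of TPM), which is not the depth of a library.

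Expected counts were rounded and tested by quasi-likelihood in edgeR 4.0.16 under R 4.3.3, with the authors' factors, filterByExpr (3216 genes) and all 6 libraries in 1 fit. Adjustment was by Benjamini-Hochberg with a threshold of 0.05, over a table that the authors selected on these libraries, so adjusted p-values do not describe the genome. The coefficient of biological variation was 0.597 with infinite prior degrees of freedom. Alternatives were DESeq2 1.42.0, limma 3.58.1 on log2(TPM + 1) and log2(TPM + 0.1), median-of-ratios or TMM factors, no filter, 4 libraries, a replicate term, GC and length offsets (GENCODE, 3545 genes, 95.0%) and each library left out.

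Named genes are, per comparison, the 6 higher and 6 lower members with the smallest p. The member of highest mean TPM per family and genes named by a list are named too. Arid3c, Kdm5a, Kdm7a, Phf6, Phf11a, Phf14, Setd7, Nipbl, Stag2, Hr, Mbd6, Dpf3 and Bcl11b were added after their values were seen. Members and lists were chosen with earlier results of these data known. Some cell type markers are not reported here.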

Additional observations from a re-analysis of the deposited data

How the results depend on the processing

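Members called in PIA+IL-27 against PIA numbered 0 except with only the 4 libraries of that comparison and with crossed replicate numbers. The 4 libraries alone gave 7 members (Arid4a, Arid4b, Atrx, Chd9, Kdm6a, Smarca1 and Smarca5), with 449 genes called (14.9%), beside 14 with all libraries. Crossed replicate numbers gave 12 members of 1195 genes called. This alternative was chosen after seeing the data, from the log2 difference between replicate 1 and replicate 2 within each group. Between PIA+IL-27 and PIA these differences had a correlation of -0.249 over 3048 genes. They had correlations of 0.086 between PIA+IL-27 and Control and 0.161 between PIA and Control. The labels state no pairing of the replicate numbers. With 1 such difference per group, these correlations over genes cannot decide whether there was one. With the replicate block, 0 members were called in each comparison and the medians were 1.35, -0.71 and 0.71. Under it 4, 3 and 3 genes were called, beside 14, 7 and 10. With TMM or median-of-ratios factors or with GC and length removed, 0 genes were called.

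In PIA+IL-27 against PIA the members' median was 0.05 with TMM, 0.07 with median-of-ratios and -0.02 with GC and length removed, and 9 and 12 members were higher (beside 23.1 and 24.4% of the table) and 5 and 3 lower (27.5 and 26.8%) without overlap under the first 2. In PIA against Control the median was 0.02 with GC and length removed and -1.22 to 0.25 with a library left out. With TMM and median-of-ratios 4 and 4 members were higher (21.0 and 20.7% of the table) and 5 and 6 lower (18.5 and 18.9%). With the authors' factors and Katnal2 set aside, 1 member was lower without overlap, beside 16.5% of the table. In PIA+IL-27 against Control the median was 0.12 to 1.62 with a library left out. There 3 and 2 members were lower (16.2 and 15.4% of the table) with TMM and median-of-ratios. TMM and median-of-ratios factors and the removal of GC and length trends place the median of all listed genes near 0 by their method. Apart from this, the cause was not tested.

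Single values were followed for the 21 members named by the rule. In PIA+IL-27 against PIA they kept their direction and side of the threshold in 247 of 294 alternatives and 17 passed the threshold only in an alternative, while 30 reversed. With TMM and median-of-ratios these were Chd7 (-0.07, -0.06), Katnal2 (-0.93, -0.92), Kdm4c (-0.08, -0.05), Kmt2c (-0.23, -0.21), Kmt2e (-0.07, -0.04), Phf11d (-0.71, -0.68), Tet1 (-0.15, -0.13) and, with TMM alone, Tet2 (-0.03). With GC and length removed they were Kdm4c -0.09, Kmt2c -0.06, Kmt2e -0.06, Phf11d -0.62, Phf20l1 -0.29, Setd2 -0.12, Smarcad1 -0.08, Tet1 -0.40 and Tet2 -0.09. Of the other members tested, Setd7 (-0.21), Phf14 (-0.04) and Kdm5a (-0.03) were below 0 with TMM, and Phf6 (-0.38), Kdm5a (-0.29), Kdm7a (-0.23) and Phf14 (-0.02) with GC and length removed. Katnal2 was -0.08 and -0.13 in limma. With a library left out, Katnal2 ranged from -0.38 to 0.66, Phf11b from -0.71 to 0.26 and Phf11d from -0.11 to 1.34.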
